A study of Mus musculus with 12 samples.

Results

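Chemokines and their receptors were followed in subcutaneous tumors of mTC11 cells, a mouse lung cancer line, with and without knockdown of *Filip1l*. A gene was taken if its symbol names a CC, CXC, CX3C or XC chemokine, a receptor for them, an atypical chemokine receptor or *Ccrl2*. Of 60 such symbols taken from the annotation, 48 were listed in the table of 15687 genes, 33 of them ligands and 15 receptors, and the other 12 were not analysed here. The tumors came from male C57BL6/J mice that had been injected with cells in Matrigel at 8 weeks of age. They were harvested at day 24 after injection. The 6 CTL tumors grew from mTC11 cells with a control short hairpin RNA (shControl) and the 6 *Filip1l*-knockdown tumors from cells with a *Filip1l* hairpin, in both cases from mixed clones kept under puromycin selection. Which of the study's 2 *Filip1l* hairpins the sequenced tumors carried is not given in the sources used here, and the hairpin was carried by the injected cells and not by the tissue of the host.

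Chemokines are small secreted proteins that guide cells along a gradient by binding receptors coupled to G proteins. CXC ligands with a Glu-Leu-Arg motif draw mainly neutrophils, many CC ligands draw monocytes, and the interferon-inducible CXC ligands draw activated T cells and NK cells. Atypical receptors bind chemokines without the usual G-protein signal and scavenge or present them. Tumors, their fibroblasts and vessels, and the leukocytes that enter all make chemokines, and bulk RNA does not show which of these cells made a transcript.

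Values are normalized counts, that is, reads per gene divided by the size factor of each tumor, and between 17834745 and 32419578 reads fell on listed genes in a tumor. *Filip1l* itself had 1983 to 2542 normalized counts in CTL tumors and 1670 to 2184 in knockdown tumors, a log2 fold change of -0.26 (limma adjusted p = 0.00998) with overlapping ranges. Keratin and other epithelial markers were abundant in all tumors. Their sum over 6 genes was 135400 to 176029 normalized counts in CTL and 189079 to 352751 in knockdown tumors. The 5 measured lung epithelial markers summed to 1017 to 2741 in CTL and 1851 to 3641 in knockdown tumors. Of these, *Sftpc* and *Nkx2-1*, markers of alveolar epithelium, held a small part. They averaged 9.76 and 17.2 in CTL tumors and 29.2 and 39.4 in knockdown tumors. Of the tumors, 3 stood apart in chemokine levels. Knockdown 1 was the highest of its group for 20 of the 48 genes, knockdown 4 the lowest for 25, and CTL 3 the highest of its group for 19. Knockdown 1 also had the highest macrophage marker sum (68692 against 39399.5 or less in the other 11 tumors), and CTL 3 the highest T cell marker sum (2719 against 2296 or less). Results that rest on these tumors are given with and without them.

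Ligands made up most of the chemokine genes that were higher in knockdown tumors, among them the neutrophil attractants *Cxcl5*, *Cxcl3* and *Cxcl2* and the T cell attractant *Cxcl9*. A gene is said to have risen or fallen where its adjusted p in limma was under 0.05. By that rule 13 of the 48 genes (27.1%) rose, beside 21.1% of all genes tested, and 3 (6.25%) fell, beside 20.7%. Past both that limit and a change of more than 1 on the log2 scale either way there were 9 higher genes (18.8%, beside 6.20% of all genes) and 0 lower (beside 3.97%). Of the ligands 11 of 33 rose and 1 fell, and of the receptors 2 of 15 rose and 2 fell. The median log2 fold change was 0.44 over the 48 genes and 0.01 over all genes tested, and it was 0.31 over the 48 genes without knockdown 1. Leaving out knockdown 1 and CTL 3 together left the same 13 and 3 genes past the adjusted p. Because whole tumors were sequenced, fewer cells of a type and less RNA per cell cannot be told apart in any of these values.

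**Figure D1:**
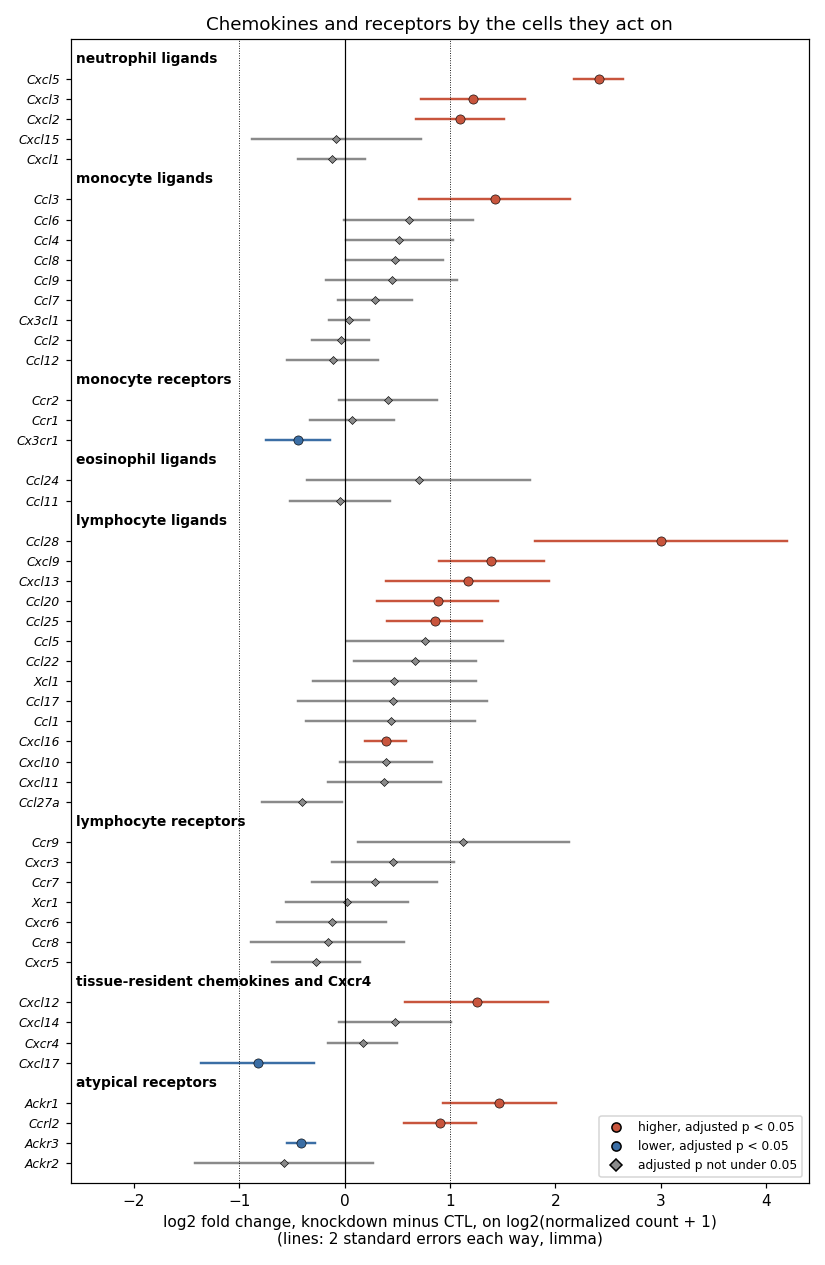
Log2 fold change of each of the 48 genes (x axis, knockdown minus CTL on log2(normalized count + 1)), grouped by the cells the protein acts on, with lines of 2 standard errors each way and dotted lines at -1 and 1. Red points rose and blue points fell by the adjusted p, and *Ccl28*, *Cxcl5*, *Ackr1*, *Ccl3* and *Cxcl9* lie farthest to the right.

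The summed level of the neutrophil attractants lay between 753 and 1089 normalized counts in CTL tumors and between 3103 and 4143 in knockdown tumors. Of the 5 measured ligands, *Cxcl5*, *Cxcl3* and *Cxcl2* rose (60%, beside 21.1% of all genes), while *Cxcl1* and *Cxcl15* did not pass the test. These 5 genes lie in 1 stretch of chromosome 5 between 90759360 and 90905938 (GRCm38), in the order *Cxcl5*, *Cxcl3*, *Cxcl15*, *Cxcl1*, *Cxcl2*, so genes that rose stand at both ends of the row and genes that did not stand between them.

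*Cxcl5* (ENSMUSG00000029371), an attractant made by epithelial and stromal cells, had 390, 541 and 608 normalized counts in CTL tumors (lowest, median and highest) and 2155, 2814 and 3287 in knockdown tumors. The lowest knockdown tumor held more than 3 times the highest CTL tumor, and both groups were tight, with means of 533 ± 77.4 and 2834 ± 400 (SD, n = 6 each). The log2 fold change was 2.41 ± 0.12 (SE, limma adjusted p = 9.31e-09), or 5.32 times in the ratio of means. Knockdown 1, the highest tumor for many other chemokines, was the lowest of its group for *Cxcl5*, and the log2 fold change without it was 2.49.

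*Cxcl2* (ENSMUSG00000058427), an early neutrophil signal of macrophages and epithelium, had 56.4, 71.1 and 93.7 normalized counts in CTL tumors and 121, 135 and 240 in knockdown tumors. The groups did not overlap, although knockdown 1 and knockdown 5 lay far above the other 4. The log2 fold change was 1.10 ± 0.21 (SE, limma adjusted p = 0.000746). *Cxcl3* (ENSMUSG00000029379), a close relative, had 91.4, 124 and 164 in CTL tumors and 159, 265 and 526 in knockdown tumors. Of the knockdown tumors 5 exceeded every CTL tumor and knockdown 6 lay inside the CTL range, with a log2 fold change of 1.22 ± 0.25 (SE, limma adjusted p = 0.00122). Without knockdown 1 and CTL 3 the log2 fold changes of *Cxcl2* and *Cxcl3* were 0.94 and 0.96, still past the adjusted p but under 1.

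*Cxcl1*, usually induced together with *Cxcl2*, had 168, 219 and 295 normalized counts in CTL tumors and 169, 195 and 240 in knockdown tumors. All 6 knockdown tumors lay within the CTL range, and the difference of -0.12 on the log2 scale had an interval of 2 standard errors from -0.44 to 0.20. *Cxcl15*, an attractant named for its expression in lung, had 28.0 to 55.5 in CTL tumors and 12.7 to 89.5 in knockdown tumors, with a log2 fold change of -0.08 (limma adjusted p = 0.896). Per kilobase of exon, the scale that allows genes to be compared, *Cxcl5* was the most abundant of the 5 in both groups, at 286 in CTL tumors and 1521 in knockdown tumors. The next were *Cxcl1* at 118 and 107, *Cxcl2* at 35.7 and 78.5, and *Cxcl3* at 35.3 and 86.1, with *Cxcl2* and *Cxcl3* closer to each other than their spread in either group. A pair of platelet chemokines outside the symbol rule sit between *Cxcl5* and *Cxcl3* on the chromosome. *Pf4* rose, with a log2 fold change of 0.78 (limma adjusted p = 0.00219), and *Ppbp* had a log2 fold change of -0.02 (limma adjusted p = 0.963).

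The windows before the start of *Cxcl1*, *Cxcl2* and *Cxcl3* are shown because these neighbours share a 10-base match to the NF-kappaB consensus, while *Cxcl2* and *Cxcl3* rose and *Cxcl1* did not pass the test. *Cxcl10*, an interferon-inducible ligand described below that also did not pass it, is shown beside them. Each run is the last 120 bases before the annotated start in RefSeq, build GRCm38.p6, read 5′ to 3′ on the strand of the gene, with the match in capitals. *Cxcl1* is chr5:90891125-90891244 (+ strand), *Cxcl2* chr5:90903779-90903898 (+ strand), *Cxcl3* chr5:90785981-90786100 (+ strand) and *Cxcl10* chr5:92348890-92349009 (- strand).
Cxcl1: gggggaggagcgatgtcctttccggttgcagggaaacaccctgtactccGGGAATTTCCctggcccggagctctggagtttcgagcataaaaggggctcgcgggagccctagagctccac
Cxcl2: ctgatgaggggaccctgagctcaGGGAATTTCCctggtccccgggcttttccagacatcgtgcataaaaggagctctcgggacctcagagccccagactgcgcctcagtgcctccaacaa
Cxcl3: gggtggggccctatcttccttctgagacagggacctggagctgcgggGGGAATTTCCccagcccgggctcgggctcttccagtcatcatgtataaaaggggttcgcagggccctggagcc
Cxcl10: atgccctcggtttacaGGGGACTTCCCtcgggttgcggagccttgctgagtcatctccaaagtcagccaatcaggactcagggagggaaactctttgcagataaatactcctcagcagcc
The capitals in *Cxcl1*, *Cxcl2* and *Cxcl3* are the same letters, GGGAATTTCC, starting 71, 97 and 73 bases before the annotated start. Those in *Cxcl10* hold a pair of overlapping matches at 104 and 103 bases. RefSeq windows were found for 36 of the 48 genes, in 41 windows. The other 12 had no window and were not searched. They were *Cxcl5*, *Cxcl11*, *Cxcl16*, *Cxcl17*, *Ccl2*, *Ccl4*, *Ccl5*, *Ccl7*, *Ccl11*, *Ccl24*, *Ccr7* and *Cxcr5*. Over the 250 bases before each start and both strands, 9 of these 41 windows (22.0%) held the NF-kappaB consensus, beside 5.00% of all 32851 windows. The gamma-activated site TTCNNNGAA was in 2 windows (4.88%, beside 7.02% of all), and the interferon-stimulated response element was in 2 (4.88%, beside 2.98%). The genes with the NF-kappaB match were *Ackr2*, *Ccl1*, *Ccl9*, *Ccl20*, *Ccrl2*, *Cxcl1*, *Cxcl2*, *Cxcl3* and *Cxcl10*, and of these 9 genes 4 rose, beside 11 of all 36 with a window. A match of letters in a window is not evidence of binding, and a window without one says only that these letters are not there.

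Several neutrophil markers also rose, but not tumor by tumor with these ligands, and their part in the result was not tested. Knockdown 1 had the highest marker sum of its group and the lowest ligand sum, at 3103. Knockdown 4 had the lowest marker sum of all tumors, while its ligand sum of 3307 exceeded every CTL tumor. Of 13 measured neutrophil markers 8 rose (61.5%, beside 21.1% of all genes) and 0 fell (beside 20.7%). Without knockdown 1 they were 7 and 2, beside 3508 and 3423 of all 15687 genes. *S100a8*, *S100a9* and *Cd177* were higher in every knockdown tumor than in any CTL tumor, as were 10.6% of all genes. The summed marker level lay between 2226 and 2914 in CTL tumors and between 2190 and 4737 in knockdown tumors, the highest in knockdown 1 and 3257 or less in the other 5, and *Mmp9* and *Ltf*, the most abundant of the list in CTL tumors, did not pass the test. The low granule gene *Ngp* averaged 2.94 in CTL tumors and 19.8 in knockdown tumors, where knockdown 1 alone held 101. Of 6 epithelial markers 5 rose (83.3%, beside 21.1% of all genes) and 0 fell (beside 20.7%).

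**Figure D2:**
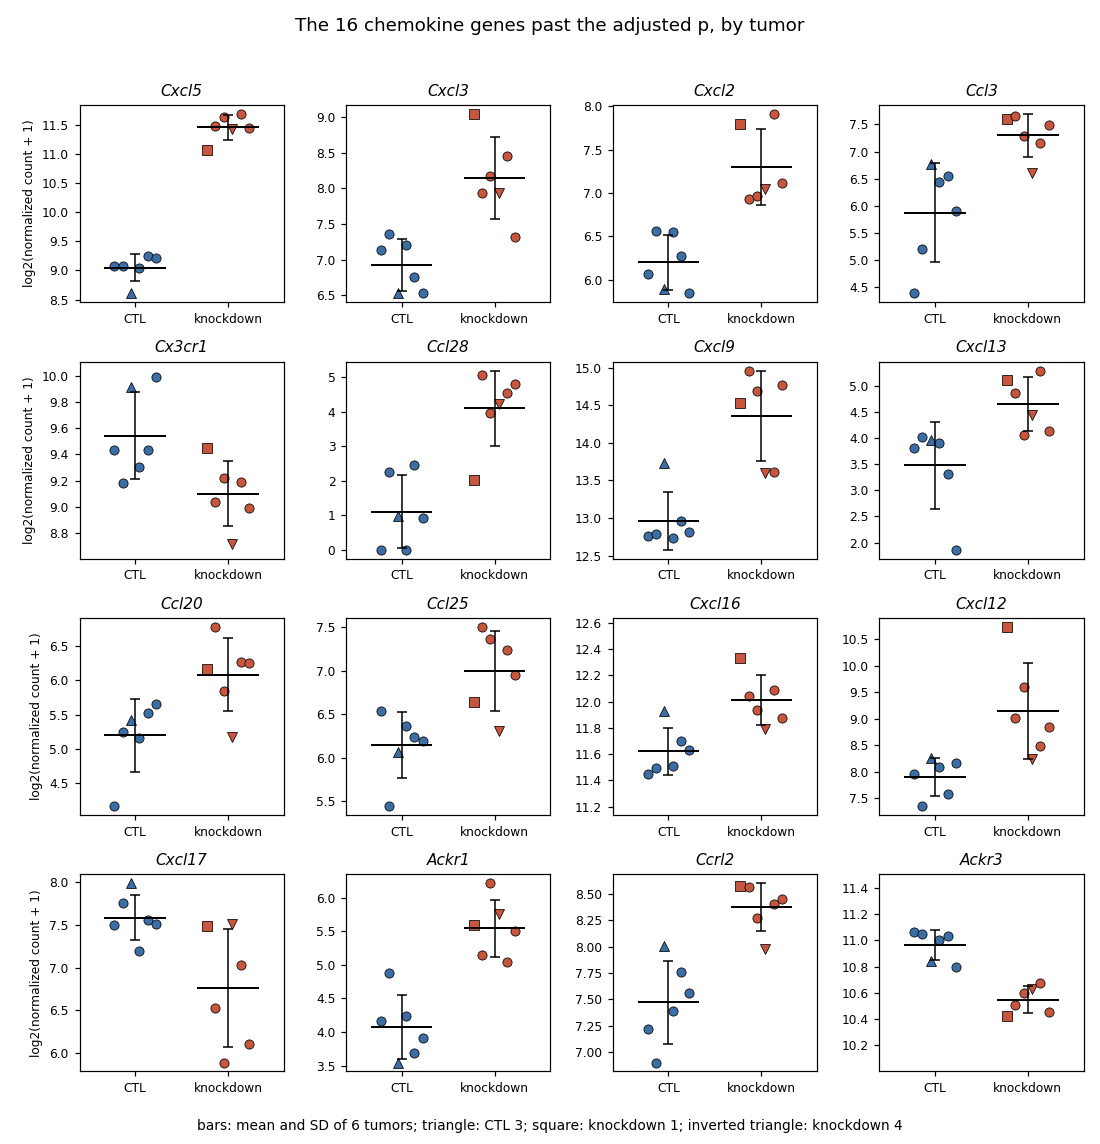
Level of each of the 16 genes past the adjusted p in every tumor (y axis, log2(normalized count + 1), scaled to each gene), with the mean and SD of 6 tumors a group in black. *Cxcl5*, *Cxcl2*, *Cxcl13*, *Ackr1* and *Ackr3* show no overlap between the groups, and knockdown 1 (square) and CTL 3 (triangle) stand out in *Cxcl12* and *Cxcl9*.

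Few genes of monocyte and macrophage attraction passed the test. Of 9 ligands and 3 receptors, *Ccl3* rose and *Cx3cr1* fell (8.33% each, beside 21.1% higher and 20.7% lower of all genes). The median log2 fold change over the 12 was 0.35, or 0.16 without knockdown 1. *Ccl3* (ENSMUSG00000000982), a ligand of *Ccr1* made by activated leukocytes, had 20, 72.4 and 108 normalized counts in CTL tumors and 96, 167 and 201 in knockdown tumors. Only knockdown 4 lay inside the CTL range, and the log2 fold change was 1.42 ± 0.36 (SE, limma adjusted p = 0.00541). *Ccl4*, its neighbour on chromosome 11, had 45.0, 68.5 and 105 in CTL tumors and 56.8, 98.5 and 146 in knockdown tumors. Its log2 fold change of 0.52 did not pass the test (limma adjusted p = 0.116), with an interval of 2 standard errors from 0.01 to 1.03.

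The ligands *Ccl2*, *Ccl7*, *Ccl8* and *Ccl12* showed no call, and neither did *Ccr2*, the receptor by which monocytes enter tissue. *Ccl2* had 316, 409 and 509 normalized counts in CTL tumors and 320, 386 and 479 in knockdown tumors, nearly the same range, with a log2 fold change of -0.04 and an interval from -0.30 to 0.23. The log2 fold changes of *Ccl7*, *Ccl8* and *Ccl12* were 0.29, 0.47 and -0.11, with adjusted p of 0.203, 0.115 and 0.716 in limma. *Ccr2* itself had 255 to 406 in CTL tumors, 305 to 439 in 5 knockdown tumors and 940 in knockdown 1. *Ccr1*, a receptor of *Ccl3* and its relatives on macrophages, was 1214 in knockdown 1, against 451 to 529 in the other 5 knockdown tumors. Without knockdown 1 its log2 fold change turned from 0.07 to -0.15, and it did not pass the test in any fit. *Ccl6* and *Ccl9*, abundant myeloid ligands of rodents, followed the same tumor, at 8079 and 2538 in knockdown 1 against 1426 to 2577 and 436 to 812 in the other 5. Their log2 fold changes were 0.61 and 0.45 with all tumors, and 0.28 and 0.13 without knockdown 1. Of 15 macrophage markers 2 rose (13.3%, beside 21.1% of all genes) and 0 fell (beside 20.7%). Without knockdown 1 they were 1 and 0, beside 3508 and 3423 of all 15687 genes. Without knockdown 1 and CTL 3 they were 3 and 0, beside 3545 and 3477 of all genes. Their sums were 28758 to 39225 in CTL tumors, 25794 to 39399.5 in 5 knockdown tumors and 68692 in knockdown 1.

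*Cx3cl1*, or fractalkine, which is anchored in the membrane until it is shed, stood at 1260 normalized counts per kilobase in CTL tumors, above the other monocyte ligands, and at 1298 in knockdown tumors, under *Ccl6* at 1742 and *Ccl8* at 1402. It had 4024, 4931 and 5614 normalized counts in CTL tumors and 4373, 5144 and 5817 in knockdown tumors, and the log2 fold change was 0.04 (limma adjusted p = 0.758). Its receptor *Cx3cr1* (ENSMUSG00000052336), carried by resident macrophages and patrolling monocytes, had 580, 691 and 1018 in CTL tumors and 421, 554 and 698 in knockdown tumors. The groups overlapped, with 3 knockdown tumors under the CTL range, and *Cx3cr1* fell by 0.44 on the log2 scale ± 0.15 (SE, limma adjusted p = 0.0292). The call ended without CTL 3 or CTL 6, the CTL tumors with the highest levels (limma adjusted p = 0.0635 and 0.0672), and without knockdown 2, 4 or 6 (0.0539, 0.0648 and 0.0575).

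Eosinophil attractants were scarce and did not pass the test. *Ccl11*, or eotaxin, had 76.2, 91.1 and 107 normalized counts in CTL tumors and 58.5, 78.8 and 148 in knockdown tumors, with a log2 fold change of -0.04. *Ccl24* had 4.00, 20.6 and 40.8 in CTL tumors and 14.0, 25.9 and 117 in knockdown tumors, the last in knockdown 1, and its log2 fold change was 0.70, or 0.32 without that tumor. Of 7 measured eosinophil and mast cell markers 3 rose (42.9%, beside 21.1% of all genes) and 0 fell (beside 20.7%). Their sums were 544 to 1816 in CTL tumors and 1327 to 5488 in knockdown tumors.

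Lymphocyte attractants held the largest share of the chemokine transcript. Of 14 ligands 6 rose (42.9%, beside 21.1% of all genes) and 0 fell (beside 20.7%). Of 7 receptors 0 rose and 0 fell, and the median log2 fold changes of these ligands and receptors were 0.57 and 0.02. *Cxcl9* (ENSMUSG00000029417), induced by interferon gamma and read by *Cxcr3* on activated T and NK cells, had 6821, 7147 and 13636 normalized counts in CTL tumors and 12414, 25004 and 31897 in knockdown tumors. CTL 3 was the only CTL tumor above 7983, and knockdown 4 and knockdown 5 lay under it, while the other 4 knockdown tumors held at least 23573. The log2 fold change was 1.39 ± 0.25 (SE, limma adjusted p = 0.000459), and it was 1.51 without knockdown 1 and CTL 3.

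*Cxcl10* and *Cxcl11*, neighbours of *Cxcl9* with the same receptor, did not pass the test. *Cxcl10* had 2427, 2570 and 4265 normalized counts in CTL tumors and 2202, 4169 and 5454 in knockdown tumors. Knockdown 4 and knockdown 5 lay under every CTL tumor and the others were at least 4023, so the knockdown tumors fell on both sides of most of the CTL tumors. Its log2 fold change was 0.39 with an interval of 2 standard errors from -0.05 to 0.82 (limma adjusted p = 0.172). For *Cxcl11*, with 1255, 1697 and 3121 in CTL tumors and 1465, 2698 and 3650 in knockdown tumors, the log2 fold change was 0.38 with an interval from -0.16 to 0.92. *Cxcr3* had 21.8, 33.0 and 51.5 in CTL tumors and 23.5, 51.6 and 62.9 in knockdown tumors, a log2 fold change of 0.46 (limma adjusted p = 0.227). In CTL 3 all 4 genes were the highest of the group, and in knockdown 4 and knockdown 5 all 4 were the lowest of the group. Knockdown tumors 1, 2, 3 and 6 lay above those tumors in all 4 genes. With knockdown 4 and knockdown 5 lowest, 1 other knockdown tumor had to lie under the group median for each gene. That tumor differed, being knockdown 1 for *Cxcl9*, knockdown 6 for *Cxcl10* and knockdown 3 for *Cxcl11*. None of the 10 T cell markers passed the test, and their sums were 1046 to 2719 in CTL tumors and 1177 to 2296 in knockdown tumors. Of 5 measured NK cell markers 0 rose (beside 21.1% of all genes) and 1 fell (20%, beside 20.7%). Their sums were 333 to 838 in CTL tumors, the highest in CTL 3, and 253 to 660 in knockdown tumors.

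Genes of the interferon gamma pathway, from a list of 9, were read beside these ligands. The cytokine *Ifng* had a log2 fold change of 0.12 (limma adjusted p = 0.714). Its receptor chains *Ifngr1* and *Ifngr2* rose by 0.32 and 0.65 on the log2 scale and the factor *Irf8* by 0.91, the kinase *Jak2*, on chromosome 19, fell by 0.54 (fell by 0.18 with chromosome medians removed, where limma adjusted p = 0.0766), and *Irf1*, *Gbp2*, *Ciita* and *Jak1* did not pass the test. In all, 3 of the 9 genes rose (33.3%, beside 21.1% of all genes) and 1 fell (11.1%, beside 20.7%). The values of *Irf8*, *Ifngr1*, *Ifngr2* and *Jak2* did not overlap between the groups. Over all genes, 10.6% were higher and 10.9% lower without overlap.

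*Cxcl16* (ENSMUSG00000018920), a membrane-bound ligand of *Cxcr6*, had 2799, 3046 and 3904 normalized counts in CTL tumors and 3534, 4060 and 5147 in knockdown tumors. It rose by 0.39 on the log2 scale ± 0.10 (SE, limma adjusted p = 0.0052), with 2 knockdown tumors inside the CTL range. *Cxcr6* itself had 135, 175 and 350 in CTL tumors, the highest in CTL 3, and 104, 168 and 304 in knockdown tumors, with a log2 fold change of -0.12. *Cxcl13* (ENSMUSG00000023078), the B cell attractant of lymphoid follicles, was low, with 2.65, 13.5 and 15.2 in CTL tumors and 15.7, 24.3 and 38.0 in knockdown tumors. The groups were separate but nearly touched. The log2 fold change was 1.17 ± 0.39 (SE), with limma adjusted p = 0.0256 and an exact two-sided permutation p of 0.00216, the smallest that 6 against 6 can give. The call ended without knockdown 2 or knockdown 5 (limma adjusted p = 0.0505 and 0.0599). The B cell marker *Cd79b*, the only one of its list measured, ran from 11.4 to 29.9 in CTL tumors and from 27.4 to 62.9 in knockdown tumors, and its part in the result was not tested. Its receptor *Cxcr5* had a log2 fold change of -0.27 (limma adjusted p = 0.332).

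The low ligands *Ccl20*, *Ccl25* and *Ccl28* rose. *Ccl20*, the ligand of *Ccr6*, had 17.0, 39.4 and 49.4 normalized counts in CTL tumors and 35.2, 72.9 and 108 in knockdown tumors, and all but knockdown 4 exceeded the CTL range. *Ccl25*, which guides lymphocytes that carry *Ccr9* to the gut, had 42.6, 73.5 and 92.0 in CTL tumors and 78.3, 136 and 180 in knockdown tumors, as for *Ccl20* with knockdown 4 alone inside the CTL range. Their log2 fold changes were 0.88 and 0.86 (limma adjusted p = 0.0237 and 0.00743), and the call of *Ccl20* ended without knockdown 2 (0.0573). *Ccl28* (ENSMUSG00000074715), a ligand of *Ccr10* found in mucosal glands, had 0, 0.927 and 4.48 in CTL tumors and 3.03, 20.1 and 32.3 in knockdown tumors. Of the CTL tumors 5 held 3 reads or fewer, as did knockdown 1, while the other 5 knockdown tumors held at least 14.6 normalized counts. *Ccl28* passed the test (limma adjusted p = 0.00111), and because the CTL level is near 0 its log2 fold change depends on the number added before the log, at 3.00 with 1 added and 1.42 with 8 added. *Ccr9* had 1.89 to 15.0 in CTL tumors and 5.87 to 36.7 in knockdown tumors and did not pass the test (log2 fold change 1.13, limma adjusted p = 0.0869). Of the 6 epithelial markers 5 rose, as given above, and their part in the result was not tested.

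The other lymphocyte ligands did not pass the test. *Ccl5*, made by T and NK cells, had 94.0 to 355 normalized counts in CTL tumors and 135 to 521 in knockdown tumors (log2 fold change 0.76, limma adjusted p = 0.115). *Ccl17* and *Ccl22*, which draw regulatory T cells, had log2 fold changes of 0.45 and 0.67, and *Ccl17* was 339 in knockdown 1 against 38.2 to 88.2 in the other 5. *Ccl1*, *Xcl1* and *Ccl27a* had 0.44, 0.47 and -0.40, and reads of *Ccl27a* are uncertain because near-identical copies exist in the genome. Exons shared with other genes make more of these levels uncertain, since the strand used in counting is not stated: 41.7% of the exon bases of *Cxcl11* lie in a pseudogene, 18.3% of *Cxcl16* in *Zmynd15*, 18.8% of *Ccr9* in an unnamed gene model, 18.7% of *Xcl1* in *Gm20743* and 5.91% of *Cxcl10* in *Art3*. *Ccl22*, *Ccl17*, *Cx3cl1* and *Ccl25* lie on chromosome 8, where the median gene was lower in knockdown tumors by a log2 shift of -0.20. With each chromosome's median removed, *Ccl22* and *Cx3cl1* passed the test at log2 fold changes of 0.87 and 0.24 (limma adjusted p = 0.0276 and 0.0341). In the same setting *Ccl25* went from 0.86 to 1.05 (limma adjusted p = 0.00185), past both thresholds, and *Ccl17* did not pass the test (0.65, 0.277). Among the receptors, *Ccr7*, *Ccr8* and *Xcr1* had log2 fold changes of 0.28, -0.16 and 0.02, with intervals from -0.30 to 0.87, -0.89 to 0.57 and -0.56 to 0.60. *Cxcr6* was the most abundant lymphocyte receptor per kilobase, at 103 in CTL tumors and 94.1 in knockdown tumors.

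Of the 4 genes grouped as chemokines made at rest in many tissues, with *Cxcr4*, 1 rose and 1 fell (25% each, near the 21.1% and 20.7% of all genes). *Cxcl12* (ENSMUSG00000061353), which holds stem cells and lymphocytes in place through *Cxcr4*, had 162, 258 and 303 normalized counts in CTL tumors and 301, 484 and 1698 in knockdown tumors. Only knockdown 4, at 301, lay inside the CTL range, and knockdown 1 was more than 2 times any other tumor. The log2 fold change was 1.25 ± 0.34 (SE, limma adjusted p = 0.00892), and without knockdown 1 it was 0.93 (limma adjusted p = 0.00411). *Cxcl17* (ENSMUSG00000060188), a chemokine of mucosal surfaces, had 146, 184 and 252 in CTL tumors and 58.4, 111 and 181 in knockdown tumors. It fell by 0.82 on the log2 scale ± 0.27 (SE, limma adjusted p = 0.0233), with knockdown 1 and knockdown 4 near the CTL median and the other 4 under the CTL range. The call ended without CTL 3 or knockdown 6 (limma adjusted p = 0.0501 and 0.0545). *Cxcl14* was the most abundant of the group per kilobase, 656 in CTL tumors and 977 in knockdown tumors. It had 920, 1126 and 1568 normalized counts in CTL tumors and 891, 1829 and 2873 in knockdown tumors, on both sides of the CTL range, and its log2 fold change of 0.48 did not pass the test (limma adjusted p = 0.164). *Cxcr4* had 317 to 494 in CTL tumors and 284 to 554 in knockdown tumors (log2 fold change 0.17, limma adjusted p = 0.438). Of 7 fibroblast markers 0 rose (beside 21.1% of all genes) and 2 fell (28.6%, beside 20.7%). Their sums were 160012 to 260347 in CTL tumors, 74885 to 157962 in 5 knockdown tumors and 252720 in knockdown 1. Without knockdown 1, 6 of the 7 fell, beside 3423 of all 15687 genes, and their part in the result was not tested.

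Of the 4 atypical receptors *Ackr1* and *Ccrl2* rose (50%, beside 21.1% of all genes) and *Ackr3* fell (25%, beside 20.7%). Of the other 11 receptors *Cx3cr1* alone passed the test. *Ackr1* (ENSMUSG00000037872), which carries chemokines across the endothelium of small veins, had 10.7, 15.6 and 28.4 normalized counts in CTL tumors and 32, 46 and 73 in knockdown tumors, without overlap. The log2 fold change was 1.47 ± 0.27 (SE, limma adjusted p = 0.000576). Of its annotated exon bases 25.7% are shared, on the same strand, with *Cadm3*, whose log2 fold change was 1.33 (limma adjusted p = 0.000707), so reads there cannot be told apart. Of 6 endothelial markers 5 rose (83.3%, beside 21.1% of all genes) and 0 fell (beside 20.7%). Their sums were 2487 to 3058 in CTL tumors and 3111 to 4891 in knockdown tumors, and their part in the result was not tested. *Ccrl2* (ENSMUSG00000043953), which binds chemerin and does not signal, had 118, 177 and 256 in CTL tumors and 252, 344 and 381 in knockdown tumors. Knockdown 4 lay just inside the CTL range, and the log2 fold change was 0.91 ± 0.17 (SE, limma adjusted p = 0.000674).

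*Ackr3* (ENSMUSG00000044337), the scavenger of *Cxcl12*, was the most abundant receptor per kilobase, at 598 in CTL tumors and 448 in knockdown tumors. It had 1775, 2073 and 2134 normalized counts in CTL tumors and 1373, 1503 and 1630 in knockdown tumors, with every knockdown tumor under every CTL tumor. *Ackr3* fell by 0.42 on the log2 scale ± 0.06 (SE, limma adjusted p = 0.000157). *Ackr2*, the scavenger of inflammatory CC chemokines, had medians of 50.1 in CTL tumors and 33.9 in knockdown tumors, with overlapping ranges and an interval of the log2 fold change from -1.42 to 0.27. Over the 48 genes the groups did not overlap for 4 that were higher in knockdown tumors (*Cxcl5*, *Cxcl2*, *Cxcl13* and *Ackr1*), or 8.33%, beside 10.6% of all genes. They did not overlap for 1 that was lower (*Ackr3*), or 2.08%, beside 10.9% of all genes.

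**Figure D3:**
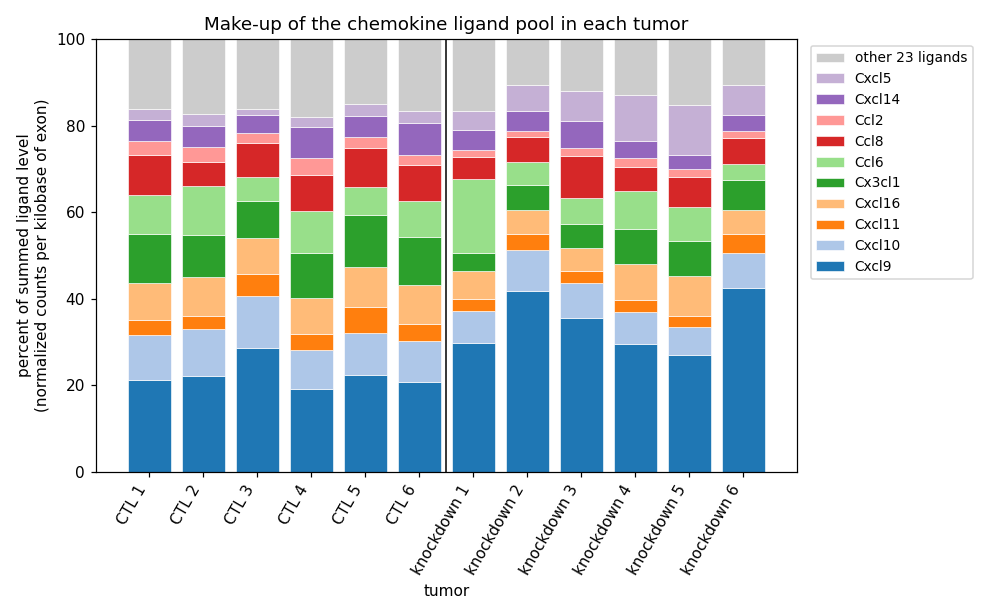
Share of each ligand (y axis, percent) in the summed level of the 33 ligands in each tumor (x axis), on normalized counts per kilobase of exon. *Cxcl9* was the highest ligand in all 12 tumors, from 19.1% to 28.6% in CTL and 27.1% to 42.4% in knockdown tumors, and *Cxcl5* grew from at most 2.77% to at least 4.41%.

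The makeup of the ligand pool differed between the groups, as a description with no test. On normalized counts per kilobase the 33 ligands summed to 10597, 11652.5 and 15795 in CTL tumors (lowest, median and highest) and to 13968, 23203 and 26226 in knockdown tumors, and the ranges overlapped through CTL 3, the highest of its group. *Cxcl9* made up 21.7% of the pool at the median CTL tumor and 32.7% at the median knockdown tumor. The 5 neutrophil ligands made up 2.37% to 5.05% in CTL tumors and 5.79% to 13.8% in knockdown tumors, without overlap. The share of the 9 monocyte ligands ran from 30.3% to 39.8% in CTL tumors and from 21.9% to 34.6% in knockdown tumors, and that of the 14 lymphocyte ligands from 45.6% to 59.9% and from 49.2% to 65.3%. *Cx3cl1* made up 8.67% to 12.1% of the pool in CTL tumors and 4.25% to 8.06% in knockdown tumors.

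**Figure D4:**
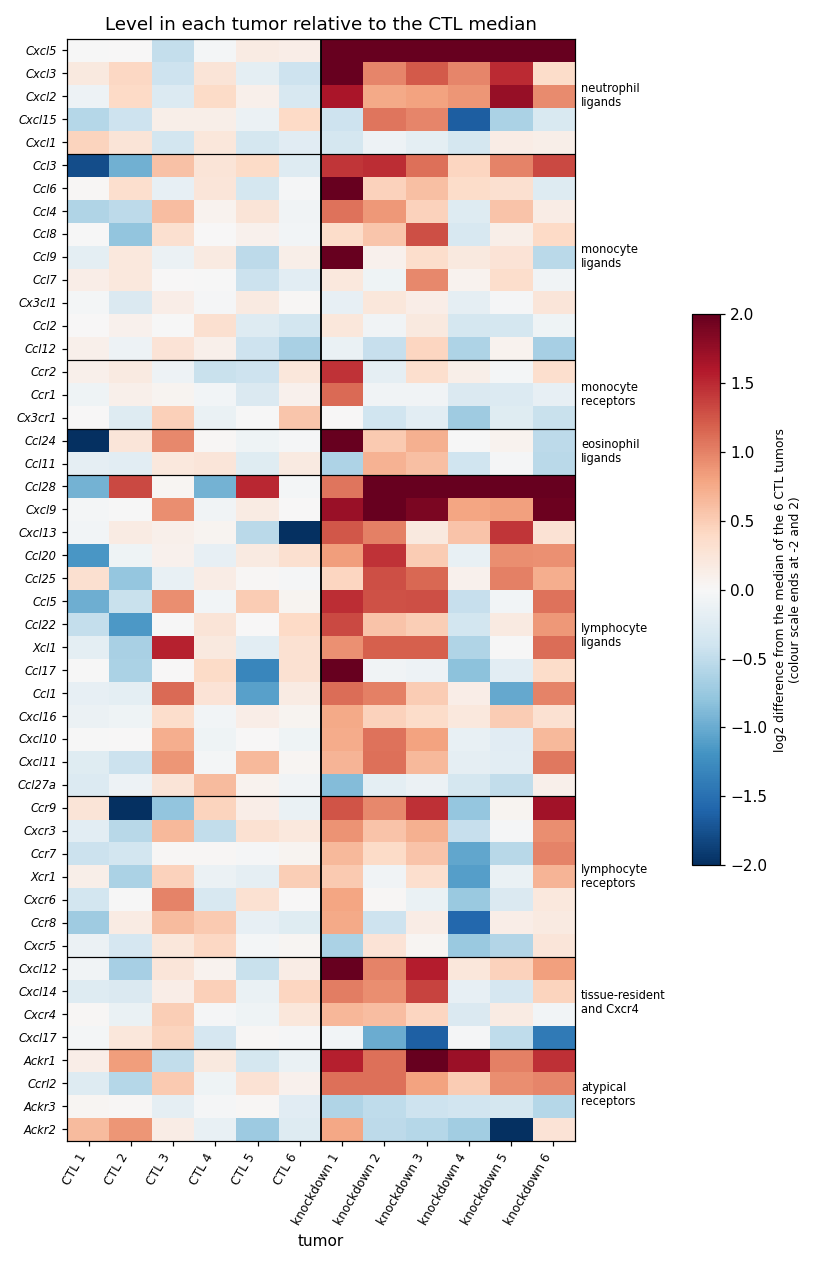
Log2 level of each gene (rows, grouped by the cells acted on) in each tumor (columns) relative to the median of the 6 CTL tumors, with red for higher and blue for lower and the scale ended at -2 and 2. *Cxcl5* is red in all 6 knockdown tumors, knockdown 1 is dark red in *Ccl6*, *Ccl9* and *Ccl17*, and knockdown 4 is blue or pale in most lymphocyte rows.

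The spread between tumors is given as a description with no test. The median coefficient of variation over the 48 genes was 24.6% in CTL tumors and 37.1% in knockdown tumors, and it was wider in knockdown tumors for 31 of 48 genes. Over all genes the medians were 12.4% and 13.6%, and 8880 of 15687 genes were wider in knockdown tumors. Over the 3780 genes with a mean of 20 to 200 normalized counts they were 24.5% and 28.6%, and 2228 genes were wider in knockdown tumors. In knockdown 4, where 25 of the 48 genes were the lowest of the group, the sums of the neutrophil, macrophage and NK cell markers were the lowest of the 12 tumors, at 2190, 25794 and 253, and the T cell sum was the lowest of its group, at 1177. Its *Cxcl5*, at 2749, was second lowest of the group and still above every CTL tumor.

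Neighbouring genes did not all move together. Of the 7 runs of members that lie within 1 Mb of each other, the *Cxcl5* run had 3 of 5 genes higher, the *Cxcl9* to *Cxcl11* run 1 of 3, the *Ccl5* to *Ccl4* run on chromosome 11 (83525778 to 83664683) 1 of 5, and the *Ccl2* to *Ccl1* run (82035571 to 82305690) 0 of 6. The receptor run on chromosome 9 from *Ccr9* to *Ccr2* (123678439 to 124113557) had 0 of 5, with log2 fold changes from -0.12 for *Cxcr6* to 1.13 for *Ccr9*. The chromosome 8 run of *Ccl22*, *Cx3cl1* and *Ccl17* had 0 of 3 higher, and *Cx3cr1* fell while its neighbour *Ccr8* did not pass the test. Beside these counts, 21.1% of all genes tested rose and 20.7% fell.

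**Figure D5:**
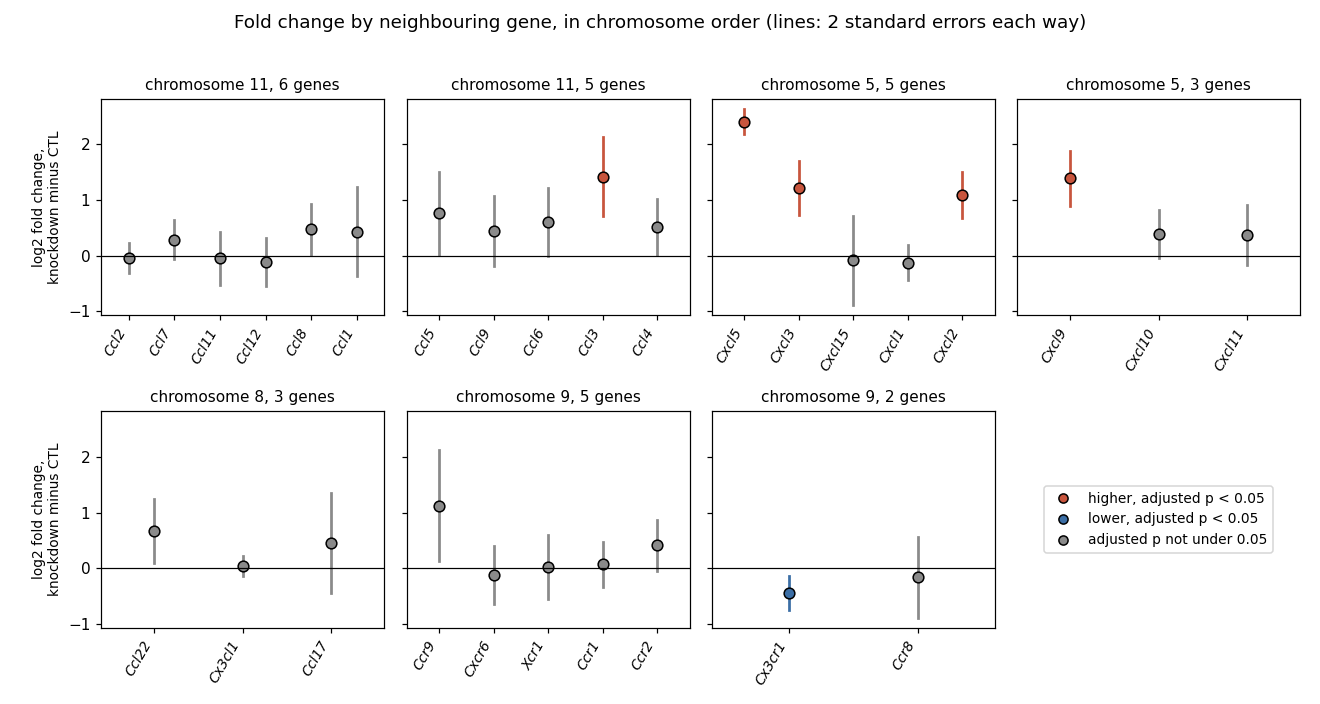
Log2 fold change (y axis, knockdown minus CTL) of members that lie within 1 Mb of each other, drawn in chromosome order in 7 panels, with lines of 2 standard errors each way. In the *Cxcl5* panel the outer genes are high and *Cxcl15* and *Cxcl1* sit near 0, and in the *Cxcl9* panel *Cxcl9* sits above its neighbours.

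Enzymes and signalling proteins that act with chemokines were read from lists of their own. Of 11 measured genes that cut, shed or hold chemokines, 3 rose (27.3%, beside 21.1% of all genes) and 1 fell (9.09%, beside 20.7%). *Dpp4*, the peptidase that trims *Cxcl9*, *Cxcl10*, *Cxcl11* and *Cxcl12*, had 80.5, 120 and 177 normalized counts in CTL tumors and 629, 869 and 994 in knockdown tumors, without overlap (log2 fold change 2.72, limma adjusted p = 1.38e-07). *Mmp8* and *Mmp12* rose by 1.21 and 0.74 on the log2 scale, and the syndecan *Sdc4*, which holds chemokines at the cell surface, fell by 0.34. *Adam10* and *Adam17*, which shed *Cx3cl1* and *Cxcl16*, had log2 fold changes of 0.03 and -0.07. Without knockdown 1 the list had 4 higher and 3 lower. Of 20 genes of receptor signalling and migration 7 rose (35%, beside 21.1% of all genes) and 3 fell (15%, beside 20.7%). Without knockdown 1 they were 5 and 3, beside 3508 and 3423 of all 15687 genes. Those without overlap were the arrestin *Arrb1* (0.47 on the log2 scale) and *Elmo1* (0.58) among the higher, and *Rgs2* (-0.89) and the receptor kinase *Grk2* (-0.23) among the lower. Over all genes, 10.6% were higher and 10.9% lower without overlap. *Grk2* lies on chromosome 19, where the median gene was lower in knockdown tumors by a log2 shift of -0.36, and with each chromosome's median removed its log2 fold change turned to 0.13 and passed the test as higher. The kinase *Ptk2b*, among the 7 that rose, turned from 0.22 to -0.17 in the same way and passed as lower. *Gnai2*, the main G-protein subunit behind chemokine receptors in leukocytes, had a log2 fold change of 0.03 (limma adjusted p = 0.731).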

How the data were processed

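RNA of 12 snap-frozen tumors (6 CTL, 6 *Filip1l*-knockdown) was sequenced after poly(A) selection and library preparation with NEBNext Ultra II. Per the paper and the submitters' processing notes, the authors used bcl2fastq 2.20, Trimmomatic 0.36, STAR 2.5.2b (mm10), featureCounts of Subread 1.5.2 and DESeq2. The deposited values are counts divided by size factors, a normalized signal that is not corrected for length. The strand setting of the counting is not given in the sources used here.

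Here, limma 3.58.1 (R 4.3.3, variance trend) was fitted to log2(normalized count + 1) of all 15687 genes, with Benjamini-Hochberg adjustment over all of them and no covariate. A filter at a mean of 5 removed 0 genes. Exact permutation tests used all 924 arrangements and were two-sided. The fit was tested on simulated data. Levels between genes were compared per kilobase of merged exons of GENCODE vM21 (GRCm38), where 15661 identifiers (99.8%) were found. Promoter windows came from RefSeq (GRCm38.p6). The labels call the tumors biological replicates, and p-values measure the spread between them. The labels name no separately made cell lines within a group. Another difference between the injected CTL and knockdown cells therefore cannot be told apart from the knockdown.

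Every gene that matched the symbols may be named, with values in full for those past both thresholds and the most abundant of each role. The genes, their roles, the lists and the tests were chosen with earlier results of these data known. Receptor genes that the symbols would also take, and a gene of the interferon list, are not reported here. Replicate numbers did not pair the tumors. Alternatives were other pseudocounts, filters and scalings, no trend, the replicate number as a block, removal of chromosome medians or of GC and length trends, and leaving out tumors.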

Additional observations from a re-analysis of the deposited data

Results flagged for a closer look

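In each group of 6 tumors, a gene's highest or lowest tumor was marked where its gap to the nearest other tumor, divided by the range of the group, passed Dixon's critical value at the 95% level. That value would mark about 1 in 20 groups of independent, normally distributed values. The counts were not logged here, the groups share the same tumors, and no rate over all genes was taken. The number marked therefore cannot be set against chance. Of 96 groups 12 were marked, each at its highest tumor, 7 of them for knockdown 1 and 4 for CTL 3.

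Knockdown 1 was marked for monocyte and macrophage genes: *Ccl6* at 8079 normalized counts (1426 to 2577 in the other 5 knockdown tumors), *Ccl9* at 2538 (436 to 812), *Ccr1* at 1214 (451 to 529) and *Ccr2* at 940 (305 to 439). It was also marked for *Cxcl12* at 1698 (301 to 769), the regulatory T cell attractant *Ccl17* at 339 (38.2 to 88.2) and the eosinophil attractant *Ccl24* at 117 (14.0 to 34.4). Knockdown 3 was marked for *Ccl7* at 367 (177 to 241).

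CTL 3 was marked for genes of T and NK cell attraction: *Cxcl9* at 13636 (6821 to 7983 in the other 5 CTL tumors), *Cxcl10* at 4265 (2427 to 2594), *Cxcr6* at 350 (135 to 215) and *Xcl1* at 133 (28.4 to 55.5).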

How the results depend on the processing

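Over 10 alternatives that kept all tumors, 469 of 477 log2 fold changes of single genes kept their direction and their side of the threshold. *Cxcl17* lost its call with the replicate number as a block (-0.82, limma adjusted p = 0.0520) and *Cx3cr1* with GC and length trends removed (-0.39, 0.0504). *Ccl22* and *Cx3cl1* gained one with chromosome medians removed, and *Ccl27a* (-0.54, 0.0130) and *Ccr2* (0.58, 0.0365) with GC and length trends removed. Rescaled to the same total, the uncalled *Cx3cl1* and *Xcr1* reversed to -0.000254 and -0.022. With the replicate block, 0 homeostatic genes were lower. With GC and length trends removed, 1 lymphocyte gene was lower, 2 monocyte genes were higher and 0 lower. With chromosome medians removed, 2 monocyte genes were higher. A filter at a mean of 20 left out *Ccl28*, *Cxcl13* and *Ccr9*. The cause of these moves was not tested.

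Leaving out each tumor in turn kept 537 of 576 values on their side. The number of genes called lower ran from 1 (without CTL 3 or without knockdown 6) to 3, of homeostatic genes called higher from 1 to 2 (without knockdown 5) and lower from 0 to 1, and of monocyte genes called higher from 1 to 3 (without knockdown 4) and lower from 0 to 1. Without knockdown 4, 18 genes were higher, the 5 gained being *Ccl4*, *Ccl5*, *Ccl8*, *Ccl22* and *Ccr9*. Uncalled genes that changed sign ran from -0.19 to 0.072 (*Ccl11*), -0.10 to 0.034 (*Ccl2*), -0.15 to 0.14 (*Ccr1*), -0.34 to 0.13 (*Ccr8*), -0.017 to 0.084 (*Cx3cl1*), -0.33 to 0.22 (*Cxcl15*), -0.29 to 0.056 (*Cxcr6*) and -0.11 to 0.25 (*Xcr1*). With knockdown 1 and CTL 3 both left out, an alternative chosen after seeing the data, no call changed, and the uncalled *Ccl11* (0.12), *Ccr1* (-0.13) and *Cxcl15* (0.010) changed sign.

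Same-numbered tumors did not deviate together (correlations from -0.269 to 0.0990, and no tumor correlated best with its own number). The block gave 3013 higher and 2892 lower genes of all tested, against 3314 and 3252 without it. The planned count tests with edgeR and DESeq2 were not run, although the values of each tumor are whole multiples of 1 step. Genes of few reads, such as *Ccl28*, *Cxcl13* and *Ccr9*, are the least precise.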

Other observations

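Skeletal muscle and adipocyte markers also differed between the groups. Of 6 muscle markers 5 rose (83.3%, beside 21.1% of all genes), or 3 without knockdown 1, beside 3508 of all 15687 genes. Their sums lay between 2051 and 11229 in CTL tumors and between 4688 and 80175 in knockdown tumors, the highest in knockdown 3. Of 3 measured adipocyte markers 2 rose (66.7%), with sums from 188 to 389 in CTL tumors and from 398 to 746 in knockdown tumors. Dendritic cell markers had 0 of 7 past the test by limma, beside 21.1% higher and 20.7% lower of all genes. Their part in the chemokine levels was not tested.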
